A study of Homo sapiens with 12 samples.

Results

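The genes described here encode secreted signals: 6 neuropeptide precursors (VGF, VIP, ADCYAP1, GAL, NPY and CARTPT), the glycoprotein hormone alpha subunit (CGA), thyroglobulin (TG) and the cytokine interleukin 11 (IL11). They were picked by gene name, 9 of the 60660 genes in the files. The choice was made with their TPM levels and changes in these libraries known, so the values of these 9 genes are given as a description and without p-values. Which of them limma, the test run over all genes, called is counted beside the share of all genes called, and nothing is read from it. TPM is a length-normalised abundance that adds up to the same total in each library, so it measures a share of the RNA.

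RNA was measured in Kelly cells, an established human neuroblastoma line with MYCN amplification that is used as a model of adrenergic neuroblastoma. There were 3 derived lines, each with an shRNA that doxycycline switches on: shRCOR1 (against RCOR1), shRCOR2 (against RCOR2) and shCTRL (non-targeting). Each line was sequenced untreated and after 2 µg/mL doxycycline, called induced here, in 2 libraries per group, which gives 6 groups and 12 libraries. Untreated cells of every line carry the shRNA construct too, and the induced shCTRL cells received the drug as well. The labels give 72 h of induction, whereas the treatment protocol names 24 or 48 h. The labels do not say that replicates came from separate cultures, so every SE and p-value below covers the spread between these libraries, which may be technical. RCOR1 and RCOR2 encode scaffold proteins of the CoREST complex, which joins the histone demethylase KDM1A to histone deacetylases.

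Neuropeptides are made as long precursors, cut by prohormone convertases in the regulated secretory pathway, stored in dense-core granules and released on stimulation. Sympathetic neurons and chromaffin cells, the relatives of neuroblastoma, release several of them beside noradrenaline, with neuropeptide Y as the classic example. Many of their genes carry a cAMP response element in the proximal promoter, the site bound by CREB, and VIP and PACAP in turn raise cAMP through their receptors. CGA is best known from the pituitary and the placenta, and TG from the thyroid.

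The proximal promoters of 5 of these genes are shown. VGF, VIP, CGA and IL11 had the largest differences between groups. CARTPT holds the same element as VGF and CGA. Limma called CARTPT in no comparison, and its replicates spread too widely to say whether it differed. RefSeq (GRCh38.p14) promoter sequences, running from 250 bases before the start site and holding 50 bases from it, matched 7 of the 9 genes, and 35116 promoters of the same length served as the background. The motifs searched on both strands were the full cAMP response element TGACGTCA, its core TGACG (which every full element contains on both strands), the AP-1 element TGANTCA, the TATA box TATAAA and the ATF4 composite element TGATGNAAT. Capitals mark the matches. The sequences lie at chr7:101165520-101165819 (minus strand, VGF), chr6:87095057-87095356 (minus strand, CGA), chr6:152750547-152750846 (plus strand, VIP), chr5:71719025-71719324 (plus strand, CARTPT) and chr19:55370414-55370713 (minus strand, IL11).
VGF: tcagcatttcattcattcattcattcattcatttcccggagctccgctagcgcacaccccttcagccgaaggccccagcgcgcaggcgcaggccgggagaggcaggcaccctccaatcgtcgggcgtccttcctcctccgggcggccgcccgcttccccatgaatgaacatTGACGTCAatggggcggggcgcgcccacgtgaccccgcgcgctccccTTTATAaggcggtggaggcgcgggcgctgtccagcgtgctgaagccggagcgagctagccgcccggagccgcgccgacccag
CGA: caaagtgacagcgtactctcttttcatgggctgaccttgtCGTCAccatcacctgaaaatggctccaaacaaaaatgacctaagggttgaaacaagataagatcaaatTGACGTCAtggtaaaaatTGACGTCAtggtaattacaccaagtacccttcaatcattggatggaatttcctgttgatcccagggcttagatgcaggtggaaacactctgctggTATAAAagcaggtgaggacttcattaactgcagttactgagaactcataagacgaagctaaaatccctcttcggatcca
VIP: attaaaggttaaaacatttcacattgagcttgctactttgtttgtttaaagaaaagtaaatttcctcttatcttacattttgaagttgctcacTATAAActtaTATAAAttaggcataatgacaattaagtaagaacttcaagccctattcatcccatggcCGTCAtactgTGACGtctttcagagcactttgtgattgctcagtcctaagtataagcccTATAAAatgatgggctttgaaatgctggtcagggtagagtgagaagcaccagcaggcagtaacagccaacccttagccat
CARTPT: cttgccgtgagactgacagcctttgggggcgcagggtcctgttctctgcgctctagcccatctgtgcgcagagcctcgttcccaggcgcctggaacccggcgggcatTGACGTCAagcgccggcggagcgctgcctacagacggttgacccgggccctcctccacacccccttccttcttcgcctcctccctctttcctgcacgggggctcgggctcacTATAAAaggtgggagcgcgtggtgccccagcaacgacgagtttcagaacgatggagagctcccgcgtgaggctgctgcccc
IL11: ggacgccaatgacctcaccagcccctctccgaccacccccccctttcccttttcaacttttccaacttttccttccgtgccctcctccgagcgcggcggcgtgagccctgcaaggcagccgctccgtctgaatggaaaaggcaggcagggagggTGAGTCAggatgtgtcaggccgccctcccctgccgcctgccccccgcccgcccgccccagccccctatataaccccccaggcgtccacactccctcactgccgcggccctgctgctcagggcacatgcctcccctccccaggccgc

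Counted from the start site as 0, VGF held 1 full cAMP response element from -79 to -72. CGA held 2 of them, from -142 to -135 and from -124 to -117, and CARTPT held 1 from -143 to -136. The full element stood in 1.848% of all promoters. VIP held no full element but its core in 2 places, from -89 to -85 on the opposite strand and from -79 to -75, and the core stood in 24.553% of all promoters. IL11 held an AP-1 element from -96 to -90, present in 7.709% of promoters. A TATA box began -32 bases from the start site in VGF, where it reads on the opposite strand, and -31, -30 and -29 bases from it in CARTPT, VIP and CGA. It stood in 11.53% of promoters. None of the 7 promoters matched the ATF4 element (0.991% of promoters). NPY had no match to any of the 5 motifs, and ADCYAP1 matched only the core, in 1 of its 2 promoter entries. These matches describe letters, not binding.

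**Figure D1:**
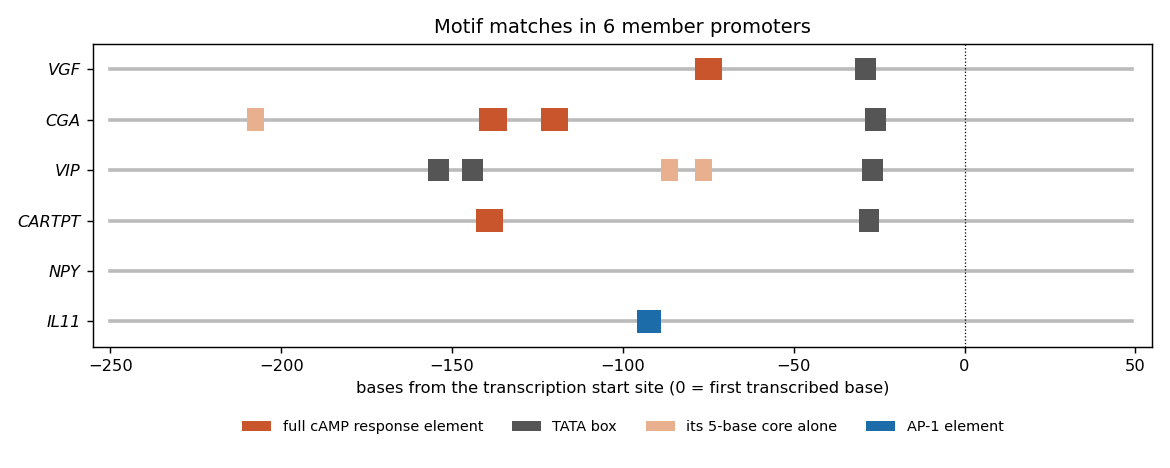
Motif matches in 6 promoters by distance from the transcription start site in bases (x axis; each grey line is one promoter, coloured blocks are matches). VGF, CGA and CARTPT hold the full cAMP response element, VIP holds the core alone in 2 places, IL11 holds an AP-1 element and NPY has no match.

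The targeted transcripts were read first. In the shRCOR1 line, RCOR1 stood at 8.32 and 9.08 TPM untreated and at 4.80 and 5.07 TPM induced. The change was −0.71 ± 0.12 (log2(TPM + 1), SE; limma adjusted p = 0.0109). In the shRCOR2 line, RCOR2 stood at 55.4 and 49.9 TPM untreated and at 17.7 and 20.5 TPM induced (−1.42 ± 0.11; limma adjusted p = 0.000403). RCOR2 also fell in the shRCOR1 line, from 51.4 and 50.5 to 26.0 and 26.3 TPM (−0.94 ± 0.11; limma adjusted p = 0.00278). Set against shCTRL, the shRCOR1 line's changes of RCOR1 and RCOR2 (−0.60 ± 0.17 and −0.75 ± 0.16) were not called, with limma adjusted p of 0.158 and 0.0690. With the replicate number as a block in the same model they were called, with adjusted p of 0.0452 and 0.0163.

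All 10 noradrenergic marker genes of the cell type were present, with a summed level of 3847 to 6486 TPM per library. Markers of thyroid follicular cells (7 genes), pituitary gonadotrophs and thyrotrophs (7), placental trophoblast (8) and leukocytes (5) stayed below 1 TPM in every library. Of 6 fibroblast markers, 4 passed the filter, and the sum of all 6 markers ran from 8.82 to 123 TPM, higher in replicate 2 of all 6 groups. Depth, read from coverage divided by FPKM, spread 2.14-fold over the libraries, and 14758 to 16026 genes reached 1 TPM. Mitochondrial transcripts took 13.3% to 21.4% of TPM. In bulk RNA, fewer expressing cells and less RNA per cell cannot be told apart.

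VGF showed a high level in 1 group only among the 6. VGF (ENSG00000128564.7, chromosome 7, 101162509 to 101165569, minus strand, GRCh38) encodes a granin-like precursor of several bioactive peptides that is induced by nerve growth factor. Libraries of the shRCOR1 line read 17.4 and 16.3 TPM untreated and 227 and 479 TPM induced. The 2 groups were far apart, with 13.0-fold and 29.4-fold differences within replicates 1 and 2. The group means were 16.9 ± 0.791 TPM (SD, n = 2) and 353 ± 178 TPM (n = 2), and the level of the induced group ranked 342 among the 16842 genes tested, against 7209 before. The difference was 4.21 ± 0.49 on the log2(TPM + 1) scale. It was 3.67 without induced replicate 2 and 4.75 without induced replicate 1.

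In the shRCOR2 line VGF stood at 17.2 and 14.1 TPM untreated and at 23.7 and 20.6 TPM induced. These groups did not overlap, and the differences within replicates 1 and 2 were 0.44 and 0.52. The mean difference was 0.48 ± 0.49, where the SE pools the spread of all 6 groups. With the replicate block the SE was 0.46. Limma did not call this difference with or without the block. In the shCTRL line the libraries read 17.4 and 8.51 TPM untreated and 18.2 and 6.41 TPM induced, so the groups overlapped and replicate 2 was the lower library in both.

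VIP was higher after induction in both knockdown lines and by a like amount. VIP (ENSG00000146469.13, chromosome 6, 152750797 to 152759765, plus strand) encodes vasoactive intestinal peptide, which raises cAMP through the receptors VIPR1 and VIPR2. The shRCOR1 libraries stood at 0.716 and 0.376 TPM untreated and at 5.71 and 7.87 TPM induced. Libraries of the shRCOR2 line read 0.848 and 0.613 TPM untreated and 8.61 and 9.44 TPM induced. In shCTRL it read 0.473 and 0.298 TPM untreated and 0.563 and 0.0950 TPM induced. The 4 induced knockdown libraries were the only ones of the 12 at or above 1 TPM, so VIP entered the tested genes only through the groups where it is high. The ratio of mean TPM was 12.4 in each of the 2 knockdown lines. The log2(TPM + 1) differences were 2.33 ± 0.23 for shRCOR1, 2.54 ± 0.23 for shRCOR2 and −0.08 ± 0.23 for shCTRL. The pseudocount of 1 presses down the change of so low a gene: with 0.1 the differences became 3.45 and 3.47, and on FPKM they became 1.62 and 1.91. The noncoding gene LINC02840, which overlaps VIP on the opposite strand, stayed at or below 0.0834 TPM.

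ADCYAP1 (ENSG00000141433.13, chromosome 18, 904871 to 912172, plus strand) encodes PACAP, the close relative of VIP, and did not share its pattern. It ran from 0.387 to 1.26 TPM over the 12 libraries and reached 1 TPM in 1 of them, so it was not among the genes tested. Within shRCOR1 it stood at 0.556 and 0.537 TPM untreated and at 0.555 and 0.778 TPM induced. The shRCOR2 libraries stood at 0.387 and 0.790 TPM untreated and at 0.729 and 0.826 TPM induced. Both pairs of groups overlapped. In shCTRL the induced libraries, at 0.684 and 0.749 TPM, lay below the untreated ones, at 0.865 and 1.26 TPM.

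GAL differed in opposite directions in the 2 knockdown lines. GAL (ENSG00000069482.7, chromosome 11, 68683779 to 68691175, plus strand) encodes galanin, a peptide made by many neurons and by neuroblastoma, and was among the most abundant members. Libraries of the shRCOR1 line read 287 and 275 TPM untreated and 540 and 418 TPM induced (0.76 ± 0.27). Within shRCOR2 it stood at 271 and 241 TPM untreated and at 132 and 95.9 TPM induced (−1.18 ± 0.27). In shCTRL the libraries read 273 and 194 TPM untreated and 260 and 153 TPM induced (−0.20 ± 0.27). The groups overlapped in shCTRL alone. Limma called the shRCOR1 difference only with the replicate block, and the shRCOR2 difference with and without it. In ratios of mean TPM, induced over untreated was 1.70 in shRCOR1, 0.445 in shRCOR2 and 0.885 in shCTRL.

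NPY was higher in the induced libraries of both knockdown lines. NPY (ENSG00000122585.8, chromosome 7, 24284188 to 24291862, plus strand) encodes neuropeptide Y, the main peptide co-transmitter of sympathetic neurons. The shRCOR1 libraries stood at 12.4 and 15.1 TPM untreated and at 35.6 and 42.2 TPM induced, with a ratio of means of 2.83 (1.44 ± 0.28). Libraries of the shRCOR2 line read 11.8 and 11.4 TPM untreated and 23.2 and 24.2 TPM induced, with a ratio of 2.03 (0.97 ± 0.28). Neither pair of groups overlapped. In shCTRL it read 11.3 and 22.6 TPM untreated and 9.56 and 13.1 TPM induced (−0.48 ± 0.28), and these groups overlapped. The untreated shCTRL replicate 2, at 22.6 TPM, lay close to the induced shRCOR2 libraries.

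CARTPT was abundant and had the widest spread between replicates among the neuropeptides above 10 TPM. CARTPT (ENSG00000164326.5, chromosome 5, 71719275 to 71721048, plus strand) encodes the precursor of the CART peptides. Within shRCOR1 it stood at 298 and 415 TPM untreated and at 600 and 236 TPM induced. The 2 replicates moved in opposite directions, by 1.01 and −0.81 (log2), and the mean difference of 0.10 ± 0.92 became −0.57 without induced replicate 1 and 0.77 without induced replicate 2. The shRCOR2 libraries stood at 72.0 and 352 TPM untreated and at 18.1 and 108 TPM induced. Each replicate was lower after induction, by −1.94 and −1.69, yet the groups overlapped because replicate 1 was the lower library in both (−1.81 ± 0.92). In shCTRL it read 167 and 306 TPM untreated and 79.1 and 120 TPM induced, with no overlap (−1.20 ± 0.92). The induced control was therefore lower as well.

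**Figure D2:**
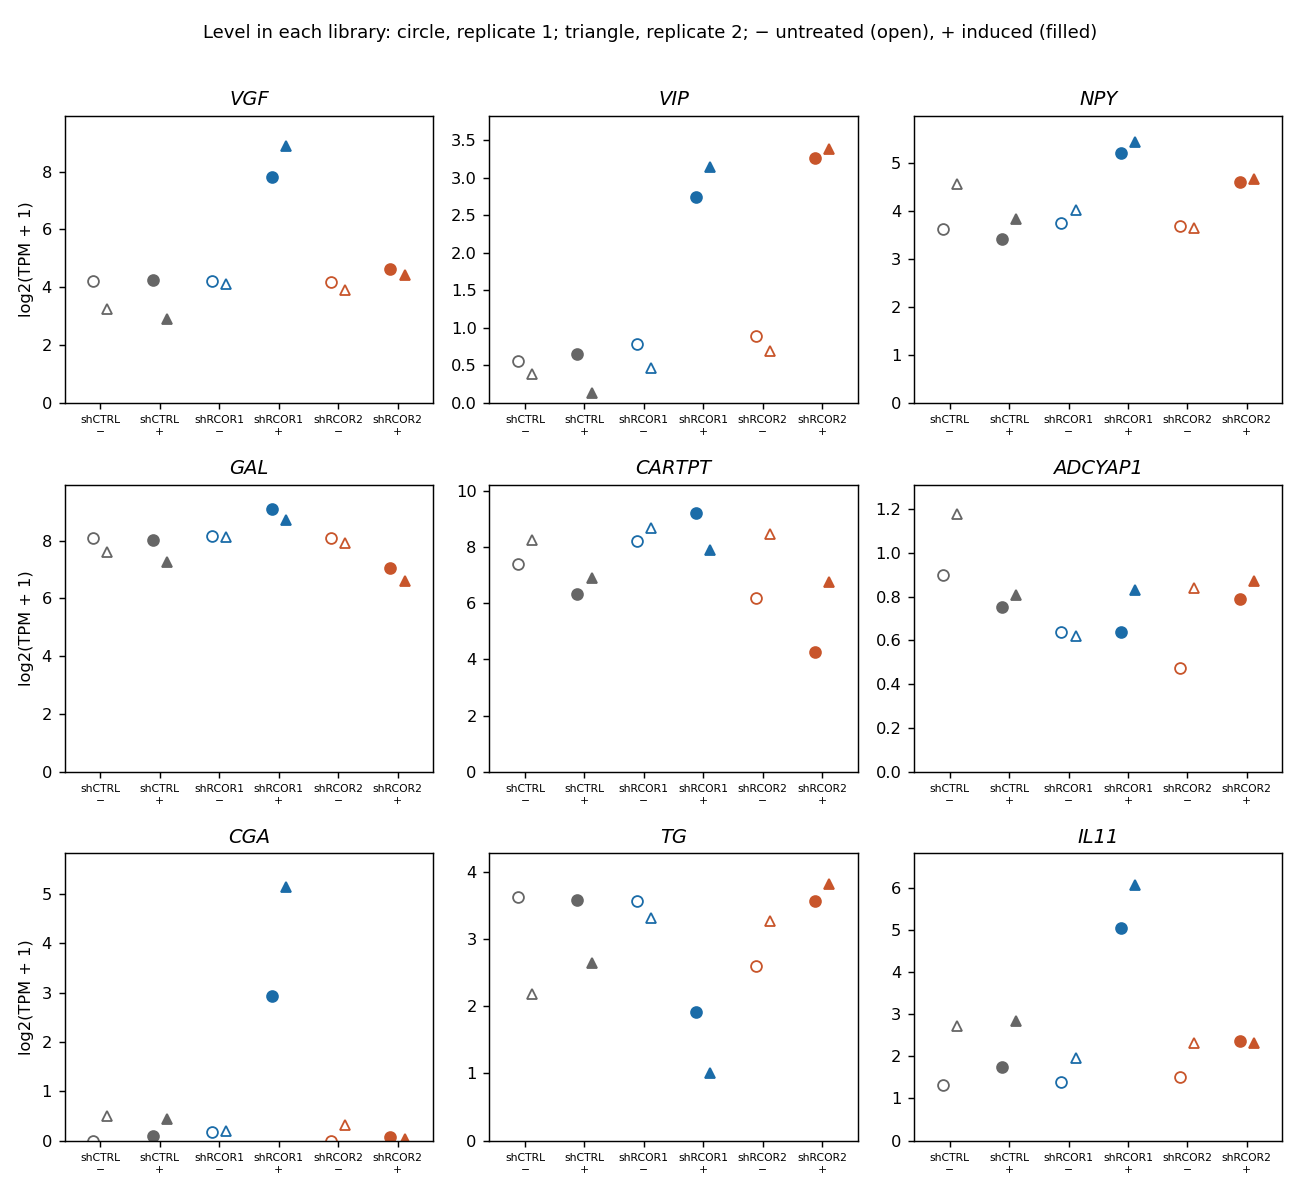
Level of each of the 9 genes as log2(TPM + 1) (y axis, a separate scale per gene) in the 6 groups (x axis); circles are replicate 1, triangles replicate 2, open symbols untreated and filled symbols induced. VGF, CGA and IL11 are high in the induced shRCOR1 libraries, VIP is high in the induced libraries of both knockdown lines, and CARTPT spreads widely between replicates.

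CGA was close to 0 outside 1 group. CGA (ENSG00000135346.9, chromosome 6, 87085498 to 87095106, minus strand) encodes the alpha subunit shared by luteinising hormone, follicle-stimulating hormone, thyroid-stimulating hormone and chorionic gonadotropin. It is unrelated to CHGA, the gene of chromogranin A. Libraries of the shRCOR1 line read 0.133 and 0.147 TPM untreated and 6.61 and 34.2 TPM induced. In the shRCOR2 line it was listed at 0 and 0.251 TPM untreated and at 0.0557 and 0.0248 TPM induced. In shCTRL it was listed at 0 and 0.422 TPM untreated and at 0.0609 and 0.351 TPM induced. The 2 induced shRCOR1 libraries were the only ones above 1 TPM, and CGA entered the tested genes through them. They differed 5.17-fold from each other, and the ratios within replicates 1 and 2 were 49.6 and 232. The log2(TPM + 1) difference was 3.84 ± 0.57, or 2.74 without induced replicate 2 and 4.95 without induced replicate 1. It was 2.82 on FPKM and 5.98 with a pseudocount of 0.1.

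The beta subunits that pair with CGA to form a hormone stayed below 1 TPM. Of 17 other glycoprotein hormone and thyroid genes, none reached 1 TPM in any library, and 4 were listed at 0 in all 12. Their summed level ran from 0.145 to 0.727 TPM. FSHB and TSHB, the beta subunits of follicle-stimulating and thyroid-stimulating hormone, were listed at 0 in all 12 libraries. LHB, the beta subunit of luteinising hormone, was listed at 0 in both induced shRCOR1 libraries and reached at most 0.204 TPM. CGB3, a beta subunit of chorionic gonadotropin with near-identical copies that can share its reads, reached at most 0.159 TPM. In the 2 induced shRCOR1 libraries the summed pituitary markers ran from 0.0800 to 0.366 TPM and the trophoblast markers from 0.108 to 0.731 TPM.

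TG differed in opposite directions in the 2 knockdown lines, the reverse of GAL. TG (ENSG00000042832.12, chromosome 8) encodes thyroglobulin, the protein on which thyroid hormone is made. The shRCOR1 libraries stood at 10.9 and 8.97 TPM untreated and at 2.77 and 1.002 TPM induced (−1.99 ± 0.51). Within shRCOR2 it stood at 5.06 and 8.68 TPM untreated and at 10.9 and 13.1 TPM induced (0.76 ± 0.51). This shRCOR2 difference was not called by limma, with or without the replicate block. Neither pair of groups overlapped. In shCTRL it read 11.3 and 3.55 TPM untreated and 10.95 and 5.27 TPM induced, so the replicates of the control differed more than its groups. The shRCOR1 difference ran from −2.44 without induced replicate 1 to −1.53 without induced replicate 2. All 7 thyroid follicular markers were below 1 TPM, and the gene SLA, which lies within the span of TG on the opposite strand, read 0.289 to 1.13 TPM.

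IL11 followed VGF and CGA. IL11 (ENSG00000095752.7, chromosome 19, 55364382 to 55370463, minus strand) encodes a cytokine of the interleukin 6 family that signals through IL11RA and the shared chain IL6ST. Within shRCOR1 it stood at 1.64 and 2.93 TPM untreated and at 32.0 and 66.5 TPM induced. The ratios within replicates were 19.5 and 22.7, and the difference was 3.87 ± 0.56 (3.36 without induced replicate 2 and 4.39 without induced replicate 1). Libraries of the shRCOR2 line read 1.86 and 3.97 TPM untreated and 4.13 and 4.02 TPM induced (0.43 ± 0.56). In shCTRL it read 1.48 and 5.56 TPM untreated and 2.36 and 6.18 TPM induced (0.28 ± 0.56), with the groups overlapping. Fibroblast markers moved with the replicate number: COL1A1 read 10.7 and 87.3 TPM in untreated shCTRL, 6.43 and 21.1 TPM in untreated shRCOR1 and 22.7 and 52.6 TPM in induced shRCOR1. The fibroblast gene DCN stayed at or below 0.0877 TPM in every library. In induced shRCOR1 the sum of the 6 fibroblast markers was 26.7 and 67.2 TPM, below the 123 TPM of the untreated shCTRL replicate 2, where IL11 was 5.56 TPM. The part of these genes in the IL11 result was not tested.

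**Figure D3:**
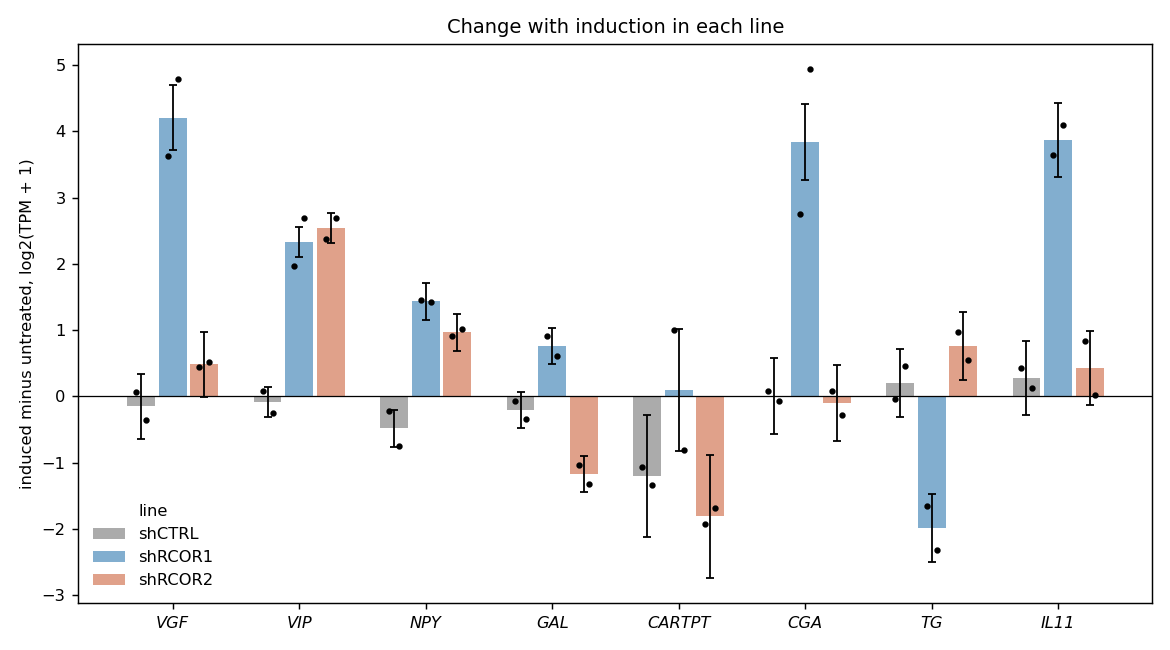
Induced minus untreated on the log2(TPM + 1) scale (y axis) for the 8 tested members (x axis) in each line; bars are means, error bars the SE from limma, and black points the differences within replicates 1 and 2. VIP stands at 2.33 and 2.54 in the 2 knockdown lines, whereas VGF, CGA and IL11 are large in shRCOR1 alone, and GAL and TG point in opposite directions in the 2 lines.

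The counts of members called are set beside the share of all genes called, as a description. The members were chosen on these values, and nothing is read from their number. CGA and VIP passed the filter only through induced knockdown libraries, so they had to be high there to be tested. Their calls, here and between lines, carry that limit. In the shRCOR1 line, limma called 6 of 8 tested members (CGA, IL11, NPY, VGF and VIP higher, TG lower), against 8.62% of the 16842 genes tested. With the replicate number as a block GAL joined them, which made 7 of 8 against 27.4% of genes. In the shRCOR2 line it called 2 of 8 (VIP higher, GAL lower), against 14.3% of genes, and with the block NPY joined, which made 3 of 8 against 36.2%. In shCTRL limma called no member and 0.0% of genes, with 938 genes at an unadjusted p below 0.05. With the block it called no member and 10 genes, or 0.0594%. TPM of the 2 groups did not overlap for 7 of 8 members in shRCOR1 (53.1% of genes), 6 of 8 in shRCOR2 (63.3%) and 1 of 8, CARTPT, in shCTRL (23.5%).

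The differences between lines were fitted in the same model, and they share libraries with the comparisons above. For shRCOR1 minus shCTRL, limma called 2 of 8 members (VGF and VIP), against 1.28% of genes, and 6 of 8 with the replicate block (CGA, GAL, IL11 and NPY as well), against 10.2%. For shRCOR2 minus shCTRL it called 1 of 8 (VIP), against 2.09% of genes, and 3 of 8 with the block (GAL and NPY as well), against 14.7%. For shRCOR2 minus shRCOR1 it called 5 of 8, against 11.2% of genes without the block and 30.4% with it: CGA, GAL, IL11 and VGF lower in the shRCOR2 change and TG higher. The 2 untreated comparisons, shRCOR1 against shCTRL and shRCOR2 against shCTRL, called no member and 0.0% and 0.0% of genes. There limma found 114 and 123 genes at an unadjusted p below 0.05 and with the block 0.0% of genes called in either.

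The members did not form a single pattern over the 12 libraries. On log2(TPM + 1), Pearson's r was 0.95 between CGA and IL11, 0.92 between VGF and CGA and 0.85 between NPY and IL11, whereas TG and CGA gave −0.86 and VIP and GAL −0.08. These coefficients are descriptions, and the points share line, treatment, replicate number and depth. The 3 tested genes most like each member, by Pearson's r over the same 12 libraries, were PPP1R13B (0.989), PENK (0.982) and TMEM45B (0.977) for VGF. For VIP they were PRKG1-AS1 (0.984), NRBP1 (0.983) and PLK3 (0.980), and for NPY they were RMC1 (0.973), ARHGAP44 (0.952) and RELB (0.939). GAL was most like DPM1 (0.986), DSCR9 (0.986) and GNL3 (0.984), and CARTPT most like IRX6 (0.921), IGF2 (0.917) and GALNT18 (0.903). CGA was most like ARLNC1 (0.995), DRAM1 (0.994) and LRRC8E (0.994), all near 0 TPM outside induced shRCOR1 as CGA is. TG was most like DERA (0.955), TRIM24 (0.928) and AC007497.1 (0.918). For IL11, MYH9 (0.985) and SMOX (0.983) were among the most alike.

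The other genes of the same pathways are described by list, each count beside the share of all genes called in that comparison without and with the replicate block. These lists too were made with results of these data known, and nothing particular to a list is read from its share. Among 73 other peptide precursor genes, 24 passed the filter. In the shRCOR1 line 5 rose and 1 fell, 6 of 24 against 8.62% of all genes. With the replicate block 11 rose and 3 fell (58.3% against 27.4%). The list median was 0.54 against 0.04 over all genes tested. EDN1, TRH and ADM, 3 of the 5 that rose, reached 1 TPM in no untreated library, so they passed the filter only through induced knockdown libraries. Without these 3 genes, 2 of 21 precursors rose and 1 fell (8 and 3 with the block), and the list median was 0.30. PENK, the enkephalin precursor, rose from 1.71 and 1.41 to 13.2 and 16.0 TPM (2.60 ± 0.16; limma adjusted p = 0.000172). SCG2, the granin that yields secretoneurin, rose from 26.8 and 31.0 to 135 and 141 TPM (2.22 ± 0.22; limma adjusted p = 0.00128). CHGA, the granin chromogranin A, fell from 3272 and 3202 to 1331 and 910 TPM (−1.55 ± 0.28; limma adjusted p = 0.0122), so these 2 granins changed in opposite directions within the line. Against shCTRL, limma called 0 precursors lower in either knockdown line, with or without the block. The fall of CHGA was therefore not called there. The 3 genes that passed through induced libraries are given as a description. EDN1, the endothelin 1 precursor, read 0.203 and 0.383 TPM untreated and 9.44 and 7.97 TPM induced (2.91 ± 0.16). TRH, the precursor of thyrotropin-releasing hormone, read 0.166 and 0.188 TPM untreated and 2.91 and 5.03 TPM induced (2.04 ± 0.21). The difference for ADM, the adrenomedullin precursor, was 0.90 ± 0.21.

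With shRCOR2 induced, 4 of these 24 precursors rose and 3 fell, 29.2% against 14.3% of all genes. With the block 8 rose and 5 fell (54.2% against 36.2%), and the list median was 0.24 against 0.07 over all genes. SST, the somatostatin precursor, rose from 108 and 129 to 342 and 272 TPM (1.36 ± 0.27; limma adjusted p = 0.0148). SCG2 rose from 29.0 and 29.4 to 52.0 and 64.2 TPM (0.96 ± 0.22; limma adjusted p = 0.0242). ADM2, which encodes intermedin, rose from 1.50 and 4.29 to 14.9 and 15.3 TPM (2.15 ± 0.58; limma adjusted p = 0.0423), while shCTRL read 2.41 and 8.37 TPM untreated and 9.02 and 20.7 TPM induced. EDN3, the endothelin 3 precursor, fell from 1.75 and 2.56 to 0.126 and 0.400 TPM (−1.32 ± 0.27; limma adjusted p = 0.0166). NPW, the neuropeptide W precursor, fell from 6.30 and 8.29 to 3.15 and 2.55 TPM (−1.10 ± 0.24; limma adjusted p = 0.0184). CHGA fell from 2854 and 2807 to 1376 and 1492 TPM (−0.98 ± 0.28; limma adjusted p = 0.0487), and this call was lost on FPKM, with median-of-ratios scaling, without the filter and in 10 of the 12 fits that left out a library.

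The difference between lines was tested for the same genes. PENK and SCG2 rose more in shRCOR1 than in shCTRL, by 2.73 ± 0.23 and 2.03 ± 0.31 (limma adjusted p of 0.00214 and 0.0274). Of 12 fits that left out a library, 12 kept the call for PENK and 2 for SCG2. EDN1 and TRH differed there by 2.67 ± 0.23 and 2.29 ± 0.29, given as a description for the reason above. With them 4 precursors of 24 were called higher and 0 lower (16.7% against 1.28% of all genes), and 5 and 0 with the block (20.8% against 10.2%). Without EDN1, TRH and ADM, 2 of 21 were called higher and 0 lower, both with and without the block. For shRCOR2 minus shCTRL 0 were called against 2.09% of all genes, and 2 with the block (8.33% against 14.7%). Between the 2 knockdown lines 2 precursors were higher and 7 lower in the shRCOR2 change (37.5% against 11.2%), and 4 and 8 with the block (12 of 24 against 30.4%). SST was higher by 1.86 ± 0.39 (limma adjusted p = 0.0193). EDN3 (−2.12 ± 0.39), PENK (−1.97 ± 0.23) and NPW (−1.84 ± 0.33) were lower, with limma adjusted p from 0.00281 to 0.0117. Of the 7, EDN1 (−2.58 ± 0.23) and TRH (−2.18 ± 0.29) again passed the filter only through induced shRCOR1. Without EDN1, TRH and ADM, 2 of 21 were higher and 5 lower, and 4 and 6 with the block. In shCTRL and in both untreated comparisons limma called 0 genes of this list and of the other 5 lists, with and without the block.

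Of 26 peptide processing and granule genes, 21 passed the filter. The shRCOR1 line had 3 rises and 0 falls, 14.3% against 8.62% of all genes, and 6 and 1 with the block (33.3% against 27.4%). Its list median was 0.02. QPCT, which forms the N-terminal pyroglutamate of peptides such as TRH, rose from 8.70 and 9.07 to 21.6 and 24.1 TPM (1.27 ± 0.26; limma adjusted p = 0.0191). SYT11, a synaptotagmin, rose by 0.80 ± 0.11 (limma adjusted p = 0.00444), and PTPRN, a dense-core granule membrane protein, by 0.46 ± 0.11 (limma adjusted p = 0.0420). With 1 library left out, SYT11 was called in 12 of 12 fits and PTPRN in 2. The shRCOR2 line had 1 rise and 1 fall, 9.52% against 14.3% of all genes, and 6 and 1 with the block (33.3% against 36.2%), so its share lay below that of all genes. Its list median was 0.17. CADPS, which primes dense-core granules for release, rose from 19.7 and 15.8 to 33.3 and 34.8 TPM (0.91 ± 0.16; limma adjusted p = 0.00831). RAB27A, a granule-docking GTPase, fell from 3.93 and 4.64 to 1.68 and 1.89 TPM (−0.92 ± 0.23; limma adjusted p = 0.0302). Against shCTRL, limma called 0 of 21 in each knockdown line, against 1.28% and 2.09% of all genes. With the block it called 3 higher and 0 lower for shRCOR1 (14.3% against 10.2%) and 2 and 1 for shRCOR2 (14.3% against 14.7%).

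Of 17 receptor genes for the members' products, 6 passed the filter. Of these 6, 1 was called in each knockdown line (16.7%), with and without the block, against 8.62% and 14.3% of all genes without it and 27.4% and 36.2% with it. IL11RA fell in the shRCOR1 line, where its ligand gene IL11 was high, from 41.3 and 48.3 to 17.5 and 24.7 TPM (−1.06 ± 0.25; limma adjusted p = 0.0341). Its difference from the shCTRL change was −1.16 ± 0.35 and was not called by limma (adjusted p = 0.172), but was called with the replicate block (adjusted p = 0.0141). The call within the line was kept in 4 of 12 fits that left out a library. NPY2R, a receptor for neuropeptide Y, read 1.34 and 0.786 TPM untreated and 3.74 and 3.44 TPM induced in the shRCOR2 line (1.17 ± 0.18). It reached 1 TPM in 5 libraries, all of induced shRCOR1, induced shRCOR2 or untreated shRCOR2. NPY2R thus passed the filter only through induced knockdown libraries and is given as a description. It was the 1 receptor called without the block in the difference from shCTRL (1.25 ± 0.25). That call was lost under median-of-ratios scaling, with a pseudocount of 0.1, without the filter and whichever library was left out. ADCYAP1R1, the PACAP receptor to which VIP binds weakly, was present at 24.9 to 51.0 TPM in all libraries. The VIP receptor genes stood lower, VIPR2 at 0.409 to 3.84 TPM and VIPR1 at 0.0511 to 0.590 TPM. The galanin receptor genes GALR1 and GALR2 did not exceed 0.0222 and 0.365 TPM.

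Of 19 genes of the interleukin 6 family and its signalling, 11 passed the filter. In the shRCOR1 line 3 rose and 0 fell with and without the block, 27.3% of the list against 8.62% of all genes without it and 27.4% with it, and the list median was 0.16. LIF, a cytokine that acts through IL6ST, rose from 1.65 and 1.55 to 2.92 and 5.72 TPM (0.98 ± 0.24; limma adjusted p = 0.0412), a call lost on FPKM, without the filter and in 9 of the 12 fits that left out a library. SOCS3, a feedback inhibitor of this pathway, rose from 5.44 and 5.57 to 9.29 and 9.21 TPM (0.66 ± 0.12; limma adjusted p = 0.0139), and its change exceeded that of shCTRL by 1.01 ± 0.17 (limma adjusted p = 0.0323), a call kept in 1 of 12 such fits. The shRCOR2 line had 1 rise and 0 falls, 9.09% against 14.3% of all genes, and 3 and 0 with the block (27.3% against 36.2%). Its list median was 0.11. The gene called without the block was LIF, which went from 2.08 and 2.01 to 7.36 and 5.73 TPM (1.30 ± 0.24; limma adjusted p = 0.0113).

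Of 36 genes of cAMP and CREB signalling, 33 passed the filter. The shRCOR1 line had 4 rises and 0 falls, 12.1% against 8.62% of all genes, and 15 and 0 with the block (45.5% against 27.4%). Its list median was 0.36 against 0.04 over all genes. NR4A1, an orphan nuclear receptor gene that CREB activates early, rose from 25.6 and 22.9 to 61.5 and 128 TPM (1.83 ± 0.31; limma adjusted p = 0.00961). CREM, which encodes CREB-related factors, rose from 36.3 and 34.2 to 56.1 and 85.7 TPM (0.96 ± 0.19; limma adjusted p = 0.0176). NR4A3, a relative of NR4A1, and CRTC3, a CREB coactivator, rose by 0.90 ± 0.16 and 0.73 ± 0.14 (limma adjusted p of 0.0109 and 0.0149). For shRCOR1 minus shCTRL, 0 of 33 were called, against 1.28% of all genes, and 5 higher and 0 lower with the block (15.2% against 10.2%).

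Genes of cAMP signalling gave 2 rises and 4 falls in the shRCOR2 line, 18.2% against 14.3% of all genes, and 8 and 7 with the block (45.5% against 36.2%). Their median was 0.03. PRKACB, a catalytic subunit of protein kinase A, fell from 12.1 and 12.5 to 5.02 and 6.04 TPM (−1.03 ± 0.22; limma adjusted p = 0.0194). PDE3B, a phosphodiesterase, PER1, a clock gene with cAMP response elements, and GNAS, the stimulatory G protein subunit, also fell. Their changes were −0.78 ± 0.21, −0.75 ± 0.16 and −0.55 ± 0.12 (limma adjusted p of 0.0398, 0.0198 and 0.0207). CRTC2, a CREB coactivator, and BDNF, a neurotrophin, rose by 0.63 ± 0.17 and 0.57 ± 0.16 (limma adjusted p of 0.0393 and 0.0492). Without the filter the calls of PDE3B, GNAS, CRTC2 and BDNF were lost. Those of PDE3B and GNAS were lost also with median-of-ratios scaling, and that of PDE3B on FPKM. The calls of PDE3B and BDNF were each kept in 4 of 12 fits that left out a library. For shRCOR2 minus shCTRL, 0 of 33 were called, against 2.09% of all genes, and 2 higher and 4 lower with the block (18.2% against 14.7%). Between the knockdown lines, 0 were higher and 5 lower in the shRCOR2 change (15.2% against 11.2%), and 0 and 13 with the block (39.4% against 30.4%). NR4A1 was among the 5 at −1.82 ± 0.44 (limma adjusted p = 0.0321).

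**Figure D4:**
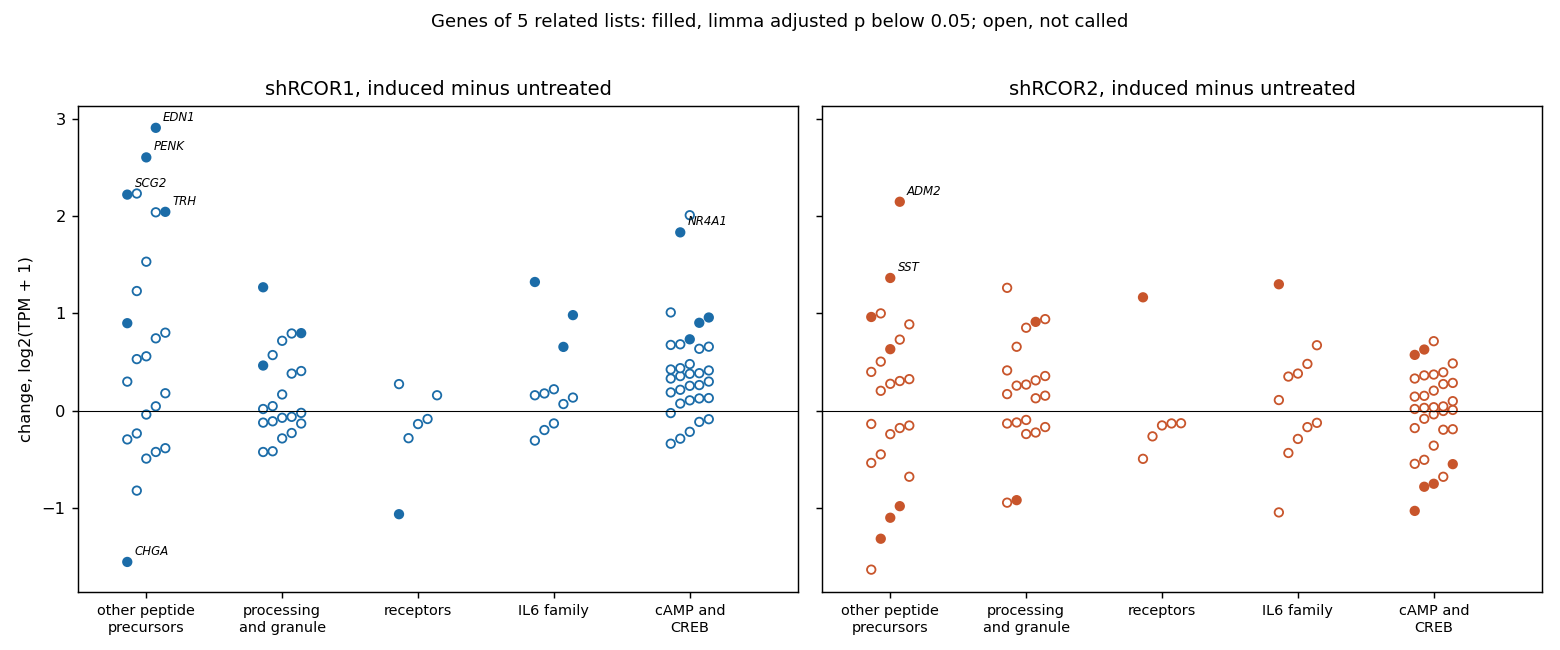
Induced minus untreated on the log2(TPM + 1) scale (y axis) for each tested gene of 5 related lists (x axis), shRCOR1 on the left and shRCOR2 on the right; filled points were called by limma, open points were not, and the called genes with the largest changes carry their names. PENK (2.60) and SCG2 (2.22) stand high among the called peptide precursors in shRCOR1, beside EDN1 (2.91) and TRH (2.04), which reached 1 TPM in induced shRCOR1 alone, and ADM2 (2.15) and SST (1.36) do in shRCOR2.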

How the data were processed

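Total RNA from 12 samples of 3 Kelly lines was made into directional NEBNext Ultra II libraries, per the labels' protocols. Trim Galore 0.6.7, HISAT2 2.2.1 and StringTie 2.1.7 were used by the authors with GRCh38 and hg38, per the submitters' processing notes. For strand and multimapping settings, the sources used here give no value. The deposited gene abundance files give coverage signal, FPKM and TPM for 60660 gene identifiers, and no counts, so no counting intervals are given. TPM as deposited by the authors are the main values, the deposited FPKM an alternative, and the deposited coverage signal was used for depth. Rows of a repeated identifier were summed (11 files, no member affected).

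A gene was tested where 2 or more libraries reached 1 TPM (16842 genes). The limma package (3.58.1, in R 4.3.3) fitted log2(TPM + 1) over all 12 libraries by group, letting the variance follow the mean level. A call means an adjusted p (Benjamini-Hochberg, all tested genes) below 0.05. Changes are log2 differences ± SE. The code was tested on simulated data. Python 3.11.15, pandas 2.3.3, numpy 2.4.6 and matplotlib 3.10.9 were also used.

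The members and lists were chosen with earlier results of these data known. Named genes are the 9 members, RCOR1 and RCOR2, the genes called in each list and comparison (the 6 largest changes where more were called) and the 3 genes most like each member. Some genes that this rule names are not reported here. Deviations from the group mean correlated by replicate number in all 15 pairs of groups (0.37 to 0.75), and the first principal component (31.9% of variance) separated replicate 1 from 2. The numbers were therefore taken to pair the samples, and fits with the replicate block are given where they change a call or a count. Other alternatives were FPKM, median-of-ratios scaling, a pseudocount of 0.1, no filter and leaving out each library.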

Additional observations from a re-analysis of the deposited data

Results flagged for a closer look

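For 4 members every library pair with the same replicate number moved one way in one line and the opposite way in another. They are listed for this direction and given without p-values, since the members were chosen on these values. Limma called the differences of GAL and TG between the knockdown lines with and without the replicate block, and those of GAL and NPY from shCTRL with the block alone. The calls of GAL and TG between the knockdown lines were not kept in every fit that left out a library. ADCYAP1 was not among the genes tested. GAL was higher with induction in both shRCOR1 pairs and lower in both pairs of the other lines, by a difference of 1.93 from shRCOR2 and 0.96 from shCTRL (log2). NPY was higher in both pairs of each knockdown line and lower in both shCTRL pairs, by 1.92 for shRCOR1 and 1.45 for shRCOR2. TG was lower in both shRCOR1 pairs and higher in both shRCOR2 pairs, a difference of −2.74. ADCYAP1, below 1 TPM in 11 libraries, was higher in both shRCOR2 pairs and lower in both shCTRL pairs, by 0.43.

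For other peptide, granule and signalling genes the change differed between lines by limma's test of the difference itself. Against shCTRL, the shRCOR1 change was higher for PENK (2.73), EDN1 (2.67), TRH (2.29), SCG2 (2.03) and SOCS3 (1.01), and the shRCOR2 change was higher for NPY2R (1.25). The shRCOR2 change lay below the shRCOR1 change for the precursors EDN1 (−2.58), TRH (−2.18), EDN3 (−2.12), PENK (−1.97) and NPW (−1.84). It lay below it also for the cAMP pathway genes NR4A1 (−1.82), PRKACB (−1.45), PER1 (−1.23), NR4A3 (−0.99) and PRKAR1A (−0.55). The same held for RAB27A (−1.71), PTPRN (−0.69), SYT11 (−0.63) and SOCS3 (−0.95). It lay above the shRCOR1 change for SST (1.86), SYT4 (1.07) and CADPS (1.04). Between the knockdown lines, the calls of PRKAR1A and SYT11 were lost on FPKM, with median-of-ratios scaling and without the filter. Those of SST, SYT4, NR4A1, NR4A3 and PRKACB were lost without the filter. Only those of EDN1, TRH and PENK were kept in every fit that left out a library. Against shCTRL, the calls of SOCS3 and NPY2R were lost with median-of-ratios scaling. EDN1 and TRH reached 1 TPM in induced shRCOR1 alone, so they had to differ to be tested. NPY2R too passed the filter only through induced knockdown libraries. With 2 libraries per group no single library could be examined as an outlier.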

How the results depend on the processing

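The members' changes kept their direction under FPKM, median-of-ratios scaling, a pseudocount of 0.1, no filter and the replicate block wherever they had been called. With the replicate number as a block, genes called went from 1451 to 4620 in shRCOR1, from 2406 to 6100 in shRCOR2, from 0 to 10 in shCTRL, from 216 to 1712 and from 352 to 2481 for shRCOR1 and shRCOR2 minus shCTRL, and from 1880 to 5125 for shRCOR2 minus shRCOR1. Pathway list genes called went with the block from 17 to 40, 17 to 39, 5 to 16, 1 to 14 and 20 to 40 in the same order without shCTRL. Without the filter 6 genes were called in shCTRL, 350 for shRCOR1 minus shCTRL, and 2 and 5 in the untreated comparisons of shRCOR1 and shRCOR2. Leaving out 1 library gave 326 to 1900 genes in shRCOR1, 493 to 3036 in shRCOR2, 26 to 173 and 19 to 321 for their differences from shCTRL, 693 to 2353 between them, 0 to 0 in shCTRL and 0 to 1 in each untreated comparison.

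The share of called genes that were higher moved in shRCOR2 from 54.7% to 68.2% on FPKM and to 44.7% with median-of-ratios scaling. For shRCOR2 minus shCTRL it moved from 42.6% to 27.3% with median-of-ratios scaling, 60.6% with the block, 52.2% on FPKM and 51.4% without the filter. For shRCOR2 minus shRCOR1 it moved from 46.5% to 59.9% on FPKM and to 51.6% with the block. Of the 6 members called in shRCOR1, 2 remained called without untreated shRCOR1 replicate 1 (CGA, IL11, NPY and TG lost) and 4 without untreated replicate 2 or either induced replicate (NPY and TG lost). The call of TG in shRCOR1 and that of GAL in shRCOR2 were lost when any 1 shRCOR2 library was left out. No call of a member in the differences between lines was kept in every such fit. Of 56 calls of named list genes, 36 were lost without induced shRCOR2 replicate 1, 33 without untreated shRCOR1 replicate 1 and 1 without induced shCTRL replicate 1. PENK and SCG2 in shRCOR1 were called in all 12 such fits. These fits have fewer samples, and groups left with 1 library were assumed to vary like the others.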

Other observations

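The members differed in how far the replicates of a group stood apart. GAL was lower in replicate 2 than in replicate 1 in all 6 groups, at 0.588 to 0.955 of its level. IL11 was higher in replicate 2 in 5 of 6 groups, with ratios from 0.974 to 3.75, and CARTPT in 5 of 6, with ratios from 0.394 to 5.99. CARTPT read 18.1 and 108 TPM in induced shRCOR2 and 72.0 and 352 TPM in untreated shRCOR2. VGF was lower in replicate 2 in 5 of 6 groups, the exception being induced shRCOR1, where replicate 2 was 2.11 times replicate 1.

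Of the 10 noradrenergic markers, 0 rose and 3 fell in shRCOR1, and 1 rose and 2 fell in shRCOR2, with list medians of −0.40 and −0.36, by the same limma test (30.0% in each line, against 8.62% and 14.3% of all genes). With the replicate block 1 rose and 5 fell in shRCOR1 and 2 rose and 5 fell in shRCOR2 (60.0% and 70.0%, against 27.4% and 36.2%). In the difference from shCTRL, 0 of 10 were called for shRCOR1 or for shRCOR2, against 1.28% and 2.09% of all genes. With the block 0 were higher and 3 lower for shRCOR1, against 10.2% of all genes. For shRCOR2 0 were higher and 2 lower with the block, against 14.7% of all genes. Schwann cell markers summed to 2.29 to 11.8 TPM, with SOX10 at or below 0.0988 TPM.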
